A study of Mus musculus with 64 samples.

Results

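The early vestibular organ was followed over the 1.5 days after the otic vesicle had been divided into a dorsal and a ventral piece. Its members are 6 of the 64 arrays of the series, chosen by their titles: 4 arrays of the vestibular organ at E11.5 and E12, 2 at each stage, against 2 arrays at E10.5. All groups were CBA/J mouse embryos, with no mutation or treatment. The tissue was the dorsal vestibular region of the inner ear, dissected without the endolymphatic duct, and each array carried RNA of a pool of 12 to 15 pieces at E11.5 and E12 and of 11 or 12 pieces at E10.5, the 2 pools of a stage coming from different litters. Epithelium was freed in dispase, a protease, for 20 to 25 minutes from E11 on and for 8 to 10 minutes at E10.5, so stage and time in the enzyme cannot be told apart between E10.5 and the later arrays. The vestibular E11 arrays, with 16 and 17 pieces, had the longer dispase time too. They are on neither side of the main comparison, and are used below to place values between the stages and as a second earlier side at equal dispase time. They had more values at the lowest signal of 10 (9.81 to 9.98% of probe sets, against 5.43 to 6.56% in the 6 arrays).

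Between these stages the dorsal part of the otic vesicle is known to form the pouches that become the semicircular canals, and to set aside the patches of sensory epithelium that become the maculae and cristae. Signals from BMP, Wnt, FGF and retinoic acid act on this epithelium, and homeobox genes divide it into a dorsal and a ventral domain. Neuroblasts leave it to form the vestibular and cochlear ganglion, and cells of the epithelium later secrete the gelatinous membranes and otoconial proteins of the organ.

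Signals are the deposited array intensities after quantile normalization, and changes are log2 differences of signal + 16, which understates the change of dim genes. A gene is called, and said to have risen or fallen, with a limma adjusted p below 0.05 over all 9352 genes tested and a change of at least 1 log2. Levels of different probe sets cannot be set against each other, so every comparison is of 1 gene between arrays. In whole tissue, fewer cells of a type and less RNA per cell cannot be told apart.

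The pieces had the marker genes of otic epithelium. The summed signal of 27 epithelial genes was 12492 to 12789 at E11.5 and E12 and 14442 to 14605 at E10.5, above the 1779 to 3879 of the tissue around the ear. Oc90, which encodes the main otoconial protein, read 3039 or more on all 6 arrays. The dorsal homeobox gene Hmx2 had 53 to 70.5 at E11.5 and E12 and 41.2 and 58.1 at E10.5, and was listed at the floor of 10 on every cochlear array of these 3 stages. Hindbrain markers summed to 362 to 758 and 385 to 636, against 5234 to 8916 around the ear, and endothelial markers to 529 to 715 and 665 to 777, against 1437 to 1714. Periotic mesenchyme markers summed to 3457 to 3855 at E11.5 and E12 and 3963 to 5285 at E10.5, against 4538 to 25537 in the surrounding tissue, so that the E10.5 range reached into that of the surrounding tissue, and none of the 16 markers was at the floor on all 6 arrays.

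The arrays of E11.5 stood apart for a small set of genes. In 40 genes they lay more than 1 log2 above the midpoint between E10.5 and E12, and in 67 genes more than 1 log2 below it; 26 and 33 of these, in the same order, did the same in the cochlea, which has arrays of its own. Totals are therefore also given with E12 alone against E10.5, counts of a list where they or their members differ there, and a named gene not called with E12 alone is marked as such. The replicate arrays of E10.5, E11, E11.5 and E12 correlated across genes at 0.9874, 0.9904, 0.9914 and 0.9893, where genes are not independent replicates.

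From E10.5 to E11.5 and E12, 171 genes rose and 143 fell, 1.83% and 1.53% of the genes tested (3.36% in either direction), and the median change of all genes was -0.01. These shares are the background for the counts of each list below. For list counts with E12 alone, the shares with E12 alone in this paragraph are the background. The rising genes had a median change of 1.29, and 24 of them rose by 2 log2 or more. The falling genes had a median of -1.25, and 12 fell by 2 log2 or more. With E12 alone, 224 rose and 148 fell (2.40% and 1.58%, 3.98% in all); 25 of the 171 and 35 of the 143 were not called there. The 2 sides did not overlap in 167 of the 171 and 141 of the 143, while without regard to the test 24.9% of all genes lay wholly higher and 25.8% wholly lower at E11.5 and E12. On the E11 arrays, 141 of the 171 rising and 110 of the 143 falling genes lay between E10.5 and E11.5, against 2997 of all 9352 genes. The call itself picks genes with a wide gap between these stages, so nothing is read from that share. Within the longer dispase time, E11.5 and E12 against E11, 144 genes rose and 82 fell (1.54% and 0.877%, 2.42% in all).

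The largest fall was that of Lin28a, the RNA-binding protein gene that keeps embryonic cells in an early state by blocking let-7 microRNAs. Lin28a read 68.2 and 96.7 at E11.5 and 121 and 104 at E12, against 2075 and 2367 at E10.5. The 2 sides were far apart, and the E11 arrays, at 848 and 984, stood between them. The change was -4.32 (SE 0.23, limma adjusted p = 1.13e-16), and from E11 on, within the longer dispase time, it was -3.05 (adjusted p = 1.09e-11). A second probe set of Lin28a gave -3.16.

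Of 13 genes tested that are known from early embryonic cells, Lin28a included, 3 fell, Lin28a being 1 of them, and 1 rose. The list median was -0.18, and 11 of the 13 had a negative change, against 4790 of all 9352 genes. Igdcc3, an immunoglobulin superfamily gene, read 198 and 202 at E11.5 and 73.8 and 57.5 at E12, against 1343 and 1193 at E10.5, and the E11 arrays were still at 1187 and 1107. Nearly its whole fall lay inside the longer dispase time (-3.28, SE 0.31, limma adjusted p = 2.83e-10, and -3.13 against E11). Igf2bp1, an RNA-binding protein gene, fell by 1.48 on the log2 scale (SE 0.20, adjusted p = 7.89e-07), although its other probe set gave -0.46. Dnmt3a, a de novo DNA methyltransferase gene, rose, with 1494 and 1635 at E11.5 and 1906 and 2179 at E12, against 600 and 593 at E10.5 (1.56, SE 0.16, adjusted p = 1.52e-09), but its 4 other probe sets gave -0.42 to 0.64. Hmga2 had a change of 0.07 and Mycn of -0.08, and neither passed the test.

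**Figure D1:**
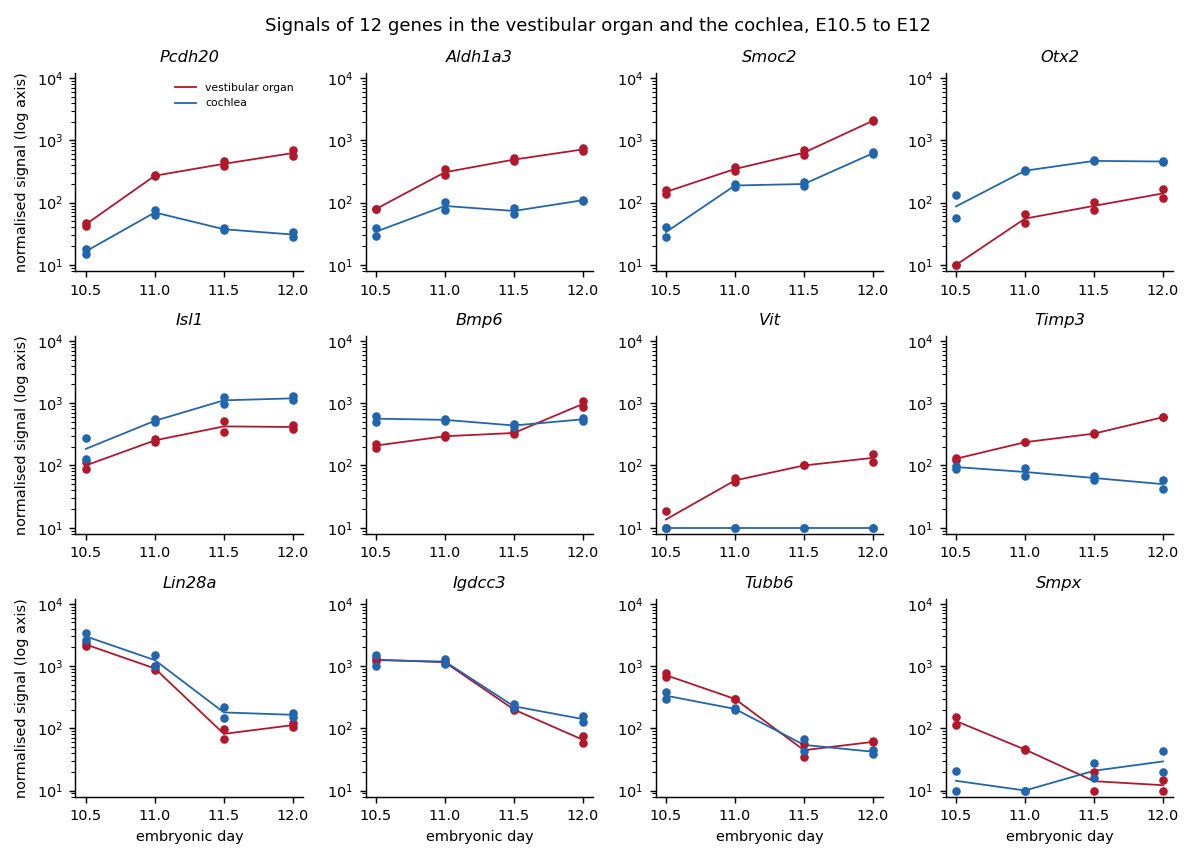
Normalised signal (log axis) of 12 genes against embryonic day in the vestibular organ (red) and the cochlea (blue); points are arrays, lines join the geometric means of 2 arrays. Pcdh20, Vit and Timp3 part between the tissues, while Lin28a, Igdcc3 and Tubb6 fall in both.

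Among the rising genes with the largest change and no sign of a peak at E11.5, Pcdh20 led. Pcdh20 encodes a protocadherin, a cell adhesion molecule. It read 383 and 462 at E11.5 and 555 and 707 at E12, against 47.3 and 42.7 at E10.5, and 277 and 265 at E11. The 2 sides did not overlap, and each stage was higher than the one before it. The change was 3.12 (SE 0.24, limma adjusted p = 1.06e-12), or 8.69-fold on the log2(signal + 16) scale, and from E11 on it was 0.88 (adjusted p = 0.00675). Of 14 cadherins and protocadherins tested, Pcdh20 was the 1 that rose and the desmosomal cadherin gene Dsc2 the 1 that fell (-1.26, SE 0.26; -0.93 in a second probe set).

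Aldh1a3, a retinoic acid synthesizing enzyme gene, read 514 and 471 at E11.5 and 674 and 762 at E12, against 78.3 and 79.9 at E10.5. It rose by 2.68 log2 (SE 0.22, limma adjusted p = 9.83e-12), and its other probe sets gave 1.68 and 0.99. Its relative Aldh1a1 moved the other way, with 24.6 and 41.6 at E11.5 and 50.3 and 56.2 at E12, against 151 and 234 at E10.5 (-1.82, SE 0.23, adjusted p = 2.46e-07). Crabp1, which encodes a protein that binds retinoic acid inside cells, was bright throughout but fell by 1.51 (SE 0.37, adjusted p = 0.0036), a call lost without E10.5 replicate 2 (adjusted p = 0.05484). These were the 3 of 13 retinoic acid genes that passed, 1 up and 2 down, and the list median was 0.04. With E12 alone the receptor gene Rarb (1.15, adjusted p = 0.002701) and Crabp2, another binding protein gene (-1.13, adjusted p = 0.04497), passed as well.

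Genes of the extracellular membranes and otoconia rose in part. Of 14 tested, 4 rose and none fell, with a list median of 0.44. With E12 alone 6 rose, Otoa (1.16) and the proteoglycan gene Epyc (1.18) being the added ones. Smoc2, which encodes a secreted calcium-binding matrix protein, had 704 and 574 at E11.5 and 2055 and 2092 at E12, against 163 and 137 at E10.5. Its rise went on through every step, 2.82 overall (SE 0.19, limma adjusted p = 5.28e-14), 1.68 against E11 and 1.68 between E11.5 and E12. Oc90 read 6784 and 6560 at E11.5 and 7438 and 8207 at E12, against 3305 and 3039 at E10.5 (1.18, SE 0.20, adjusted p = 4.22e-05). Its E11 arrays were already at 6264 and 5684, and the change from E11 was 0.27. Otog, the otogelin gene, rose by 1.14 (SE 0.17, adjusted p = 5.22e-06), and by 0.85 without E10.5 replicate 2, which is under the threshold. Tecta, which encodes alpha-tectorin, rose from a low level by 1.11 (SE 0.18, adjusted p = 2.27e-05), with E12 arrays at 78.6 and 88.2 against 19.9 and 18.1 at E10.5. The otoconial gene Sparcl1 had a change of 0.31 and Otoa of 0.79, neither called over both stages, and 2 collagen genes of the list, Col11a1 at -0.57 and Col2a1 at -0.48, were the lowest.

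Transcription factor genes of the otic vesicle gave 4 rises and no fall among 22 tested (list median -0.02). Otx2, a homeobox gene of the ventral otic vesicle, was at the floor of 10 on both E10.5 arrays and had 103 and 76.3 at E11.5 and 168 and 118 at E12. Every later array was above the floor. Its limma adjusted p was 4.74e-11 (2.30, SE 0.20), and because the earlier side is at the floor the rise is at least 11.2-fold. In the cochlea Otx2 read 452 to 478 at E11.5 and E12 and 131 and 57.7 at E10.5. In the utricle with ampullae, a separate dissection of later stages, Otx2 averaged 10 at E12.5, 20.15 at E14.5 and 10 at E15. Isl1, a LIM homeobox gene of sensory epithelium and ganglion neurons, had 525 and 343 at E11.5 and 389 and 443 at E12, against 115 and 87.5 at E10.5 (1.91, SE 0.23, adjusted p = 6.75e-08; 0.67 in a second probe set). None of the other 8 tested ganglion neuron markers was called. Nr2f1, a nuclear receptor gene, rose by 1.01 (SE 0.30, adjusted p = 0.0167), a call lost without either E10.5 array or without E12 replicate 1 (0.89 to 1.14).

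Gsc, a homeobox gene known from the ventral otic vesicle, was called but did not keep its direction by stage. It read 66.7 and 73.5 at E11.5 and 122 and 63.8 at E12, against 13.7 and 32.6 at E10.5 (1.32, SE 0.34, limma adjusted p = 0.00538). The E11 arrays were the highest, at 168 and 219, so that from E11 on it fell by 1.13 (adjusted p = 0.0163), and without E10.5 replicate 1 the change from E10.5 was 0.97. The zinc finger gene Gata2 had 0.81 (SE 0.18, adjusted p = 0.00113) and the T-box gene Tbx3 0.84, both below the threshold of 1 log2. Gata3, Eya1, Sox10 and Tbx1 had changes of -0.38, -0.10, -0.10 and 0.27 and did not pass.

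Homeobox genes of the dorsal ear did not rise as a group. Of 19 tested, 1 rose and 2 fell, and the list median was -0.12. Hmx2, Hmx3 and Dlx5, which are needed for the canals or the vestibular organ in the mouse, had changes of 0.24, -0.07 and -0.34, none called. Meis1, a TALE homeobox gene, rose to 104 and 124 at E11.5 and 135 and 136 at E12, against 42.2 and 32 at E10.5 (1.41, SE 0.17, limma adjusted p = 1.59e-07), and was already at 123 and 114 at E11. Its relative Meis3 fell by 1.56 (SE 0.37, adjusted p = 0.00266; 0.079 without E10.5 replicate 1). Irx1 was called as fallen, but with E12 alone its change was -0.34 and it did not pass, and without E11.5 replicate 1 it was -0.98. With E12 alone Gbx2, a homeobox gene of the dorsal ear, passed in its place (-1.21, adjusted p = 1.909e-05).

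Genes of canal formation and the signals that act there gave a few rises. Of 16 canal genes, Fgf9 and Sema3e rose and none fell (list median 0.13), and with E12 alone 3 rose. Fgf9, a growth factor gene of the vesicle epithelium, read 450 and 483 at E11.5 and 723 and 703 at E12, against 230 and 234 at E10.5 (1.26, SE 0.18, limma adjusted p = 1.75e-06). Sema3e, a secreted guidance molecule gene, rose by 1.03 (SE 0.20), and by 0.99 without E10.5 replicate 2, with other probe sets at 1.53 and 0.42. Bmp2, a BMP ligand gene needed for canals in the mouse, had 0.98, just under the threshold, and was called with E12 alone (1.348, adjusted p = 3.023e-05), while Ntn1, Fgf10 and Bmp4 had 0.29, 0.06 and 0.06. Of 20 FGF genes 3 rose and none fell: Fgf13 by 1.47 (SE 0.20, adjusted p = 6.46e-07), Fgf9, and Fgf16, whose change was 0.48 without E10.5 replicate 2 and 1.85 without replicate 1, and whose call was lost without E11.5 replicate 2 or E12 replicate 1 and with E12 alone (1.12, adjusted p = 0.0611), which leaves 2 of the 20.

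In the BMP and TGF-beta list 2 of 23 rose and none fell (list median 0.13), and with E12 alone 3 rose, Bmp2 among them. Bmp6, a BMP ligand gene, read 314 and 352 at E11.5 and 876 and 1085 at E12, against 225 and 194 at E10.5. Most of its rise came in the last step, since the change between E11.5 and E12 was 1.51 (SE 0.15, limma adjusted p = 7.8e-09), and the whole change was 1.39 (SE 0.13, adjusted p = 3.82e-10). Fstl1, a secreted BMP-binding glycoprotein gene, rose by 1.05 (SE 0.22), by 0.97 without E11.5 replicate 2 or E12 replicate 2, and by 0.62 in a second probe set. The Wnt list had 2 rises and 1 fall among 28: the ligand genes Wnt4 (1.39, SE 0.25, adjusted p = 8.2e-05) and Wnt5a (1.13, SE 0.20, adjusted p = 8.22e-05) rose, and Nkd1, an inhibitor gene that Wnt signals induce, fell (-1.18, SE 0.30, adjusted p = 0.00452). Without E10.5 replicate 1 the change of Wnt5a was 0.94, and without E10.5 replicate 2 the adjusted p of Nkd1 was 0.06282. None of 11 hedgehog and 13 IGF genes was called, and with E12 alone Igfbp1, an IGF binding protein gene, passed (-1.48, adjusted p = 0.03505).

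The 5′ regions of 3 genes with large or tissue-dependent changes are printed to show where these transcripts start: Pcdh20 and Bmp6, which rose, and Lin28a, which fell. Each is 250 bases before to 50 after the start, on the gene's strand, from RefSeq on GRCm38.p6: Pcdh20 at chr14:88471347-88471646 (minus strand), Bmp6 at chr13:38345466-38345765 (plus strand) and Lin28a at chr4:134018767-134019066 (minus strand). Capitals mark 2 elements of many promoters, searched on both strands: the box with the letters CCAAT, and the GC box, whose letters are GGGCGG. No match of one overlapped a match of the other.
Pcdh20: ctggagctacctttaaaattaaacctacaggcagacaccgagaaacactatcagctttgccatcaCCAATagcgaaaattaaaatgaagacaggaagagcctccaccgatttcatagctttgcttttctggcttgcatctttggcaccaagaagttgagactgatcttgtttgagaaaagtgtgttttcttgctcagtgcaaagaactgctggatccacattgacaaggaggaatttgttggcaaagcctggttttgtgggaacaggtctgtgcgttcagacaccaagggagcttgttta
Bmp6: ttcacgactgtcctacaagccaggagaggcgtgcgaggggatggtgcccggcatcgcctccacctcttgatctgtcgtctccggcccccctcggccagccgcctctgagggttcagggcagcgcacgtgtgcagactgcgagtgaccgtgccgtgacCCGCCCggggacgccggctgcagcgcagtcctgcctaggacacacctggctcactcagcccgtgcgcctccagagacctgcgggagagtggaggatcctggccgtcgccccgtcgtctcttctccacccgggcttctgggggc
Lin28a: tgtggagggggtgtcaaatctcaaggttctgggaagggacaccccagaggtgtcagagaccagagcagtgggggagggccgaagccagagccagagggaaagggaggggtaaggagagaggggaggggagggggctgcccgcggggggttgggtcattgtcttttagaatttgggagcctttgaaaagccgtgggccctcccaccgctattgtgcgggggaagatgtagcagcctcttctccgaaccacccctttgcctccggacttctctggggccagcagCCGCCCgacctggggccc
Pcdh20 held 1 CCAAT box and no GC box, and Bmp6 and Lin28a each held 1 GC box and no CCAAT box. Promoters were matched by symbol for 132 of the 171 rising and 111 of the 143 falling genes, and the CCAAT box was found in 46.2% and 45.9% of them, against 42.7% of the 7515 tested genes with a promoter and 41.1% of all 27025 symbols of the table. The GC box was found in 72% and 62.2%, against 67.1% and 38.2%. A match describes the letters only.

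Few sensory cell genes were called. None of 25 prosensory and Notch genes was called (list median -0.10): Sox2, Jag1 and Lfng had changes of -0.20, -0.13 and 0.28. Of 15 hair cell genes 1 rose and 2 fell (list median -0.06). Myo6, a motor protein gene of hair cells, rose by 1.10 (SE 0.23, limma adjusted p = 0.000639), with other probe sets at -0.25 and 0.54, and the call was lost without E10.5 replicate 1 (0.87), E11.5 replicate 2 or E12 replicate 2 (0.98 for both). Atoh1, the transcription factor gene that starts hair cell development, averaged 15.7 at E11.5 and 25.85 at E12, against 12.15 at E10.5 (means of 2 arrays), and its change of 0.37 was not called. Gfi1 was at the floor of 10 on every array but the 2 of E12, at 11.1 and 16.7.

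Some genes that fell here rose in the utricle with ampullae after E12, among them both hair cell genes that fell. Those later arrays carried another dissection, so the periods before and after E12 are of unlike pieces. Smpx, a small muscle and hair cell protein gene, read 10 and 19.9 at E11.5 and 14.8 and 10 at E12, against 113 and 151 at E10.5 (-2.32, SE 0.25, limma adjusted p = 7.13e-09). In the utricle with ampullae, a tissue with arrays of its own from E12.5 to E15, the fitted rise was 5.42 (SE 0.25, adjusted p = 4.88e-20). Espn, an actin bundling protein gene of stereocilia, had 252 and 199 at E11.5 and 149 and 117 at E12, against 766 and 709 at E10.5 (-1.996, SE 0.49, adjusted p = 0.00314; 0.05038 without E10.5 replicate 1), and then a utricle trend of 2.58. Ap3b2, a subunit gene of a vesicle coat of neurons, fell by 2.05 and had a trend of 2.12, and Aldh1a1 had one of 2.93. The keratin gene Krt23 (-1.82 and 2.87) and Dmkn, a gene known from epidermis (-2.68 and 1.82), turned in the same way. The utricle trend called 7.53% of all genes. Of all called genes, 24 of the 143 that fell were among the 471 that rose in the utricle trend (16.8% and 5.1% of each list, background 5.04%), and 11 were among the 233 that fell there (7.69% and 4.72%). Of the 171 that rose, 36 rose on (21.1% and 7.64%) and 12 fell (7.02% and 5.15%, background 2.49%). With E12 alone, of 148 falls 24 rose and 10 fell in the trend, and of 224 rises 49 rose on and 14 fell.

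**Figure D2:**
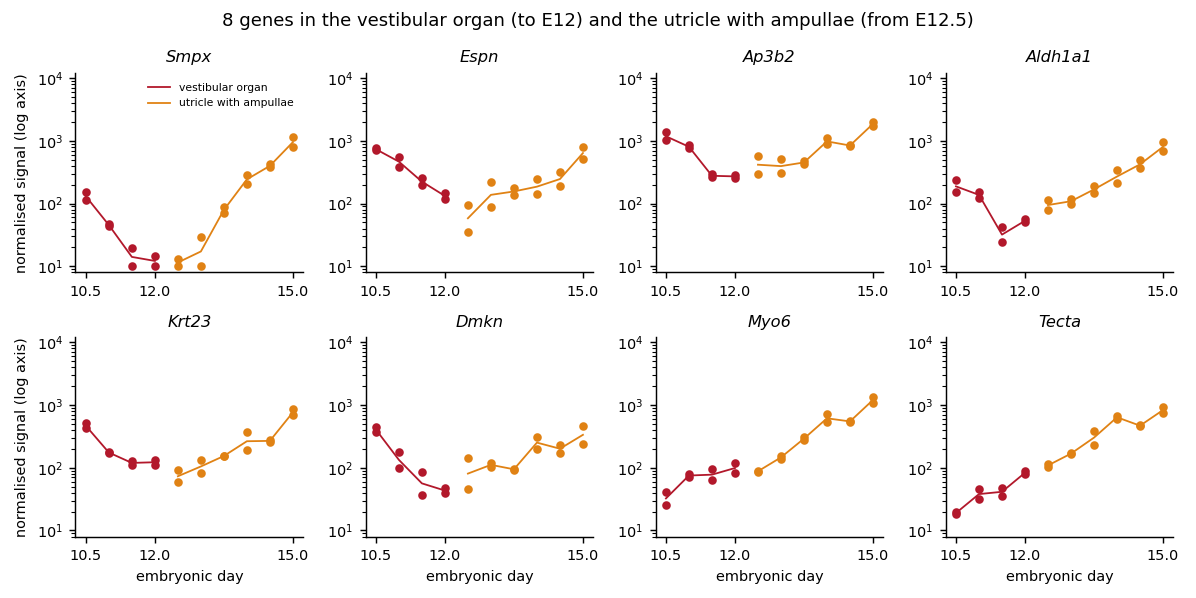
Normalised signal (log axis) of 8 genes against embryonic day in the vestibular organ, E10.5 to E12 (red), and the utricle with ampullae, E12.5 to E15 (orange); points are arrays, lines join the geometric means of 2 arrays. The first 6 genes are lower at E12 than at E10.5 in the vestibular organ. They are higher again by E15 in the utricle with ampullae, and Myo6 and Tecta rise in both tissues.

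None of 23 neurogenic and neuronal genes was called (list median -0.06). Of 9 ganglion neuron markers Isl1 rose and none fell; their list median was -0.42 (-0.59 with E12 alone), and 6 had a negative change. The summed signal of the 9 was 1855 to 2553 at E11.5 and E12 and 2287 to 2569 at E10.5, against 2897 to 21526 around the ear, and none was at the floor on all 6 arrays. Neurod1, a transcription factor gene of neuroblasts, was lower at E11.5 (380 and 388) and at E12 (240 and 223), against 590 and 522 at E10.5, but its change of -0.86 (SE 0.19) lay under the threshold of 1 log2. With E12 alone it was -1.21 (limma adjusted p = 0.000161), the 1 call of both lists besides Isl1. Proliferation genes were mostly not called. No replication gene among 25 was called (list median -0.14, and -0.31 with E12 alone). Of 27 mitosis genes (median 0.09, and -0.09 with E12 alone) the checkpoint kinase gene Bub1 was called. Its change was -1.26 (SE 0.20) over both stages and -0.92 with E12 alone. Over both stages 20 of the 25 and 12 of the 27 had a negative change, against 4790 of all 9352 genes. The replication gene Mcm5 (-1.06, adjusted p = 0.0009095) and the mitotic kinesin gene Kif23 (1.03, adjusted p = 0.0008691) passed with E12 alone. Among 18 cell cycle exit genes Btg1, an antiproliferative gene, rose by 1.14 (SE 0.21, adjusted p = 0.000103, and 0.67 in a second probe set). The cell cycle inhibitor gene Cdkn1b had a change of 0.16 and was not called, but its second probe set gave 1.15 (adjusted p = 0.01532). The inhibitor gene Cdkn1a fell by 1.08 (SE 0.31, adjusted p = 0.0109; 0.07771 and 0.09779 without 1 of the E10.5 arrays), but its second probe set gave -0.46 (adjusted p = 0.2133), and with E12 alone it was not called (-0.99).

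Of 17 genes of ion and fluid transport tested, 2 rose and none fell (list median 0.19), and with E12 alone Slc12a2, a chloride cotransporter gene, rose too (1.02). Slc26a4, which encodes the anion exchanger pendrin, had 161 and 163 at E11.5 and 192 and 241 at E12, against 80.2 and 68.5 at E10.5, and 50.9 and 51.4 at E11. The change was 1.17 (SE 0.19, limma adjusted p = 2.79e-05) and 1.60 against E11. Aqp5, a water channel gene, was at the floor on both E10.5 arrays and read 37.7 and 51.2 at E11.5 and 111 and 80.4 at E12, at least 6.44-fold higher (adjusted p = 8.73e-05), while its E11 arrays were at 73.6 and 90. Cldn8, a tight junction gene, rose by 1.12 (SE 0.20, adjusted p = 0.000109).

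**Figure D3:**
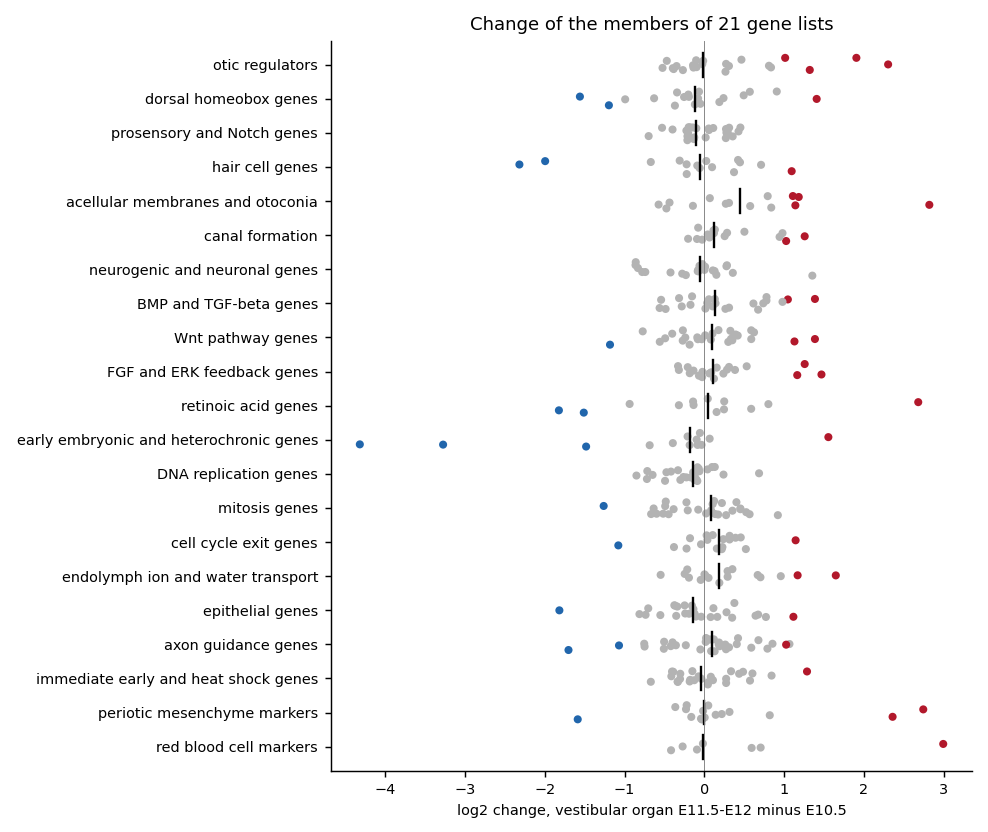
Log2 change from E10.5 to E11.5 and E12 of each tested member of 21 gene lists; red and blue points passed the test (higher and lower), grey points did not, and black bars are list medians. The medians lie near 0, and most lists hold a few called members, with 4 of 14 in the membrane and otoconia list.

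Some rising genes are marker genes of other cells. Of 16 periotic mesenchyme markers 2 rose and 1 fell (list median -0.01). Dcn, the decorin gene, read 260 and 248 at E11.5 and 404 and 385 at E12, against 37.5 and 30 at E10.5 (2.75, SE 0.22, limma adjusted p = 3.88e-12), and from E11 on its change was 0.58 (adjusted p = 0.054). Lum, the lumican gene, rose by 2.36 (SE 0.33), and the collagen gene Col6a1 fell by 1.59 (SE 0.21). Twist1, Prrx1, Pdgfra and Col1a1 had changes of -0.22, 0.32, 0.22 and -0.03. The summed signal of the 16 markers was, as given above, not higher at the later stages, and the part of surrounding cells in Dcn and Lum was not tested.

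Red cell genes gave 1 call among 7 (list median -0.02). Hbb-b2, an adult beta globin gene, was at the floor on both E10.5 arrays and read 77.9 and 80.4 at E11.5 and 320 and 592 at E12, at least 18.6-fold higher (limma adjusted p = 0.00178). A second probe set of Hbb-b2 had a change of 0.09, and with E11.5 alone the adjusted p was 0.1208. The summed signal of the 7 genes was 3777 to 6407 at E11.5 and E12 and 3044 to 3788 at E10.5, against 5241 to 16365 around the ear. With E12 alone Hbb-bh1, an embryonic globin gene, fell by 1.21 (adjusted p = 0.04178). Of 27 immediate early and heat shock genes the stress-induced transcription factor gene Ddit3 rose (1.29, SE 0.32, adjusted p = 0.00421), with a change of 0.93 without E10.5 replicate 1, and none fell (list median -0.04). No gene of the endothelial, macrophage, neural crest, hindbrain, muscle or epidermal lists was called, and of 6 cartilage markers Hapln1 fell (-1.16, SE 0.25, and -0.96 without E10.5 replicate 2), with other probe sets at -0.77 and -0.80. With E12 alone the cartilage gene Cnmd rose (1.20).

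Of the other lists, 29 basement membrane, 12 Hox, 22 glycolysis and 23 cholesterol genes held no called member, with list medians of 0.01, -0.17, -0.12 and -0.15. With E12 alone the integrin gene Itgav rose (1.18). Of 32 axon guidance genes 1 rose and 2 fell (list median 0.10). Besides Sema3e these were Ephb4, an ephrin receptor gene, whose change was -1.70 over both stages and -0.96 with E12 alone, and Slit3, a secreted guidance ligand gene (-1.07, SE 0.16, and -0.99 without E10.5 replicate 2).

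Apart from Lin28a and Igdcc3, the falling genes with the largest changes had no common list. Tubb6, a beta tubulin gene, read 35 and 56.3 at E11.5 and 61.3 and 59.6 at E12, against 664 and 764 at E10.5, and 300 and 292 at E11 (-3.42, SE 0.20, limma adjusted p = 1.01e-15). B4galnt2, a glycosyltransferase gene, fell by 2.90 (SE 0.23) and H2-Bl, a class I histocompatibility gene, by 2.38 (SE 0.20). Taar1, the trace amine receptor gene, fell by 2.96 (SE 0.43), with 10.2 and 58.8 at E11.5 and 10 and 64.7 at E12, against 351 and 319 at E10.5. In the carbonyl reductase gene Cbr3 (-2.38, SE 0.48) and Zyg11a (-2.50, SE 0.55), most later arrays were at or near the floor. 1700120B22Rik, a gene without an assigned function here, fell by 3.01 (SE 0.34).

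Of the other rising genes among the leading 12, some were as high at E12 as at E11.5 or higher. Kirrel, an adhesion molecule gene, had 290 and 285 at E11.5 and 369 and 504 at E12, against 10 and 77.2 at E10.5 (2.90, SE 0.45, limma adjusted p = 1.06e-05). Cacna1b, a neuronal calcium channel subunit gene, had E10.5 arrays at 177 and 22.1, and without the second of them its change of 2.51 became 1.34 and was not called (adjusted p = 0.2812). D930016D06Rik rose by 2.44 (SE 0.22) and was somewhat higher at E11.5 (2053 and 2697) than at E12 (1624 and 1951). At E12.5 D930016D06Rik averaged 495 in the utricle with ampullae, and in the cochlea it had 2116 at E12 and 528.2 at E12.5.

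Tmem267, a membrane protein gene, had the largest rise, 3.72 (SE 0.24, limma adjusted p = 7.01e-15). It read 1384 and 1482 at E11.5 and 534 and 705 at E12, against 48.9 and 65.1 at E10.5, and 488 and 457 at E11. The E11.5 arrays were the highest, and the E12 arrays were close to those of E11. In the cochlea Tmem267 had the same course, with 1359 and 1556 at E11.5 and 637 and 798 at E12, against 66.9 and 22.7 at E10.5. Ppp2cb, a phosphatase catalytic subunit gene, Slc15a2, a peptide transporter gene, and Dstyk, a protein kinase gene, peaked likewise in both tissues within E10.5 to E12. With E12 alone their changes were 2.60, 2.62 and 2.04. At E12.5 the utricle with ampullae averaged 99.85, 266.4 and 91.85 for these genes in the same order. The vestibular organ at E10.5 had averaged 75.65, 67.8 and 116.6. In the cochlea these genes averaged 80.4, 657.6 and 143.4 at E12.5, against 70.95, 42.1 and 89.6 at E10.5. By E15 they averaged 85.65, 3702 and 385.4 in the utricle with ampullae and 38.8, 4456 and 504 in the cochlea. At E15 Slc15a2 was thus above its E11.5 averages, 983.6 in the vestibular organ and 1387 in the cochlea. Second probe sets of Slc15a2 and Dstyk gave only 0.54 and 0.48, and Dstyk was not called without E10.5 replicate 2 (adjusted p = 0.09352).

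Between E11.5 and E12, at 1 dispase time, 54 genes rose and 10 fell (0.577% and 0.107%, 0.684% in all), and many of them were genes whose E11.5 arrays stood apart. Of the 54, 30 had E11.5 arrays more than 1 log2 below the midpoint of their neighbours, 21 of them in both tissues. Of all 9352 genes, 67 lay that far below it, 33 of them in both tissues. The call itself favours genes with low E11.5 arrays, so nothing is read from the share of the 54. Tmem87a, a membrane protein gene, had 411 and 384 at E10.5, 390 and 347 at E11, 32.4 and 63.5 at E11.5 and 325 and 348 at E12 (2.51, SE 0.25, limma adjusted p = 4.36e-09 for E12 against E11.5). Snhg16, a small nucleolar RNA host gene, had the same shape (2.25, SE 0.29). The fatty acid transporter gene Slc27a2 was also lowest at E11.5, with 816 and 564 at E10.5, 472 and 413 at E11.5 and 2563 and 1439 at E12 (2.08, SE 0.26). For Tmem87a and Snhg16 the change of E12 alone against E10.5 was -0.23 and -0.38, neither called, although both are among the 143 falling genes. Pld4, a phospholipase family gene, went the other way, with 10 and 10 at E10.5, 26.7 and 54.0 at E11, 175 and 121 at E11.5 and 10 and 10 at E12. It counts among the 171 with no change between E10.5 and E12. The cause was not tested.

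**Figure D4:**
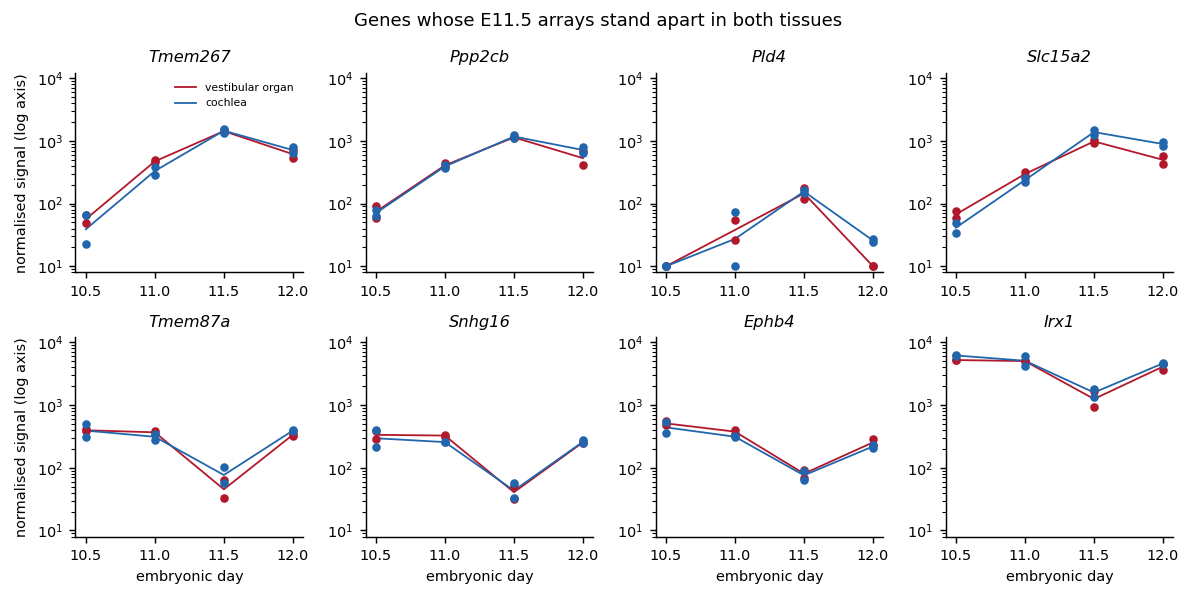
Normalised signal (log axis) of 8 genes against embryonic day in the vestibular organ (red) and the cochlea (blue); points are arrays, lines join the geometric means of 2 arrays. Within E10.5 to E12, in both tissues, the upper 4 genes are highest at E11.5 and the lower 4 lowest there.

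Other genes rose from E11.5 to E12 after a rise or a plateau. Agr3, a secretory pathway gene, read 278 and 252 at E12 and 45.6 and 44.4 at E11.5, and was at the floor at E10.5 (2.20, SE 0.25, limma adjusted p = 1.13e-07 for E12 against E11.5); against E10.5 the later side was at least 10.9-fold higher. Calml4, a calmodulin-like gene, had 142 and 152 at E12 and 31.6 and 16.9 at E11.5 (2.04, SE 0.26, adjusted p = 1.64e-06). In the utricle trend, from another dissection, the fitted rises of Agr3 and Calml4 were 2.94 and 4.84. Agr3 averaged 508 there at E12.5, above the 265 of the vestibular organ at E12. Calml4 started lower, with a mean of 39.5 at E12.5 against 147.2 in the vestibular organ at E12. Among the 10 that fell, Ces1d, a carboxylesterase gene, had 55.7 and 64.2 at E12 and 185 and 218 at E11.5 (-1.52, SE 0.27), Mogat2, an acyltransferase gene, fell by 1.67 (SE 0.29), and Hbb-bh1 fell by 1.58 (SE 0.41, adjusted p = 0.0386). Igdcc3 fell on by 1.41 (SE 0.36, adjusted p = 0.0333). Leaving out each of the 4 arrays ended the last call every time (adjusted p 0.1519 to 0.3775), and Hbb-bh1 was not called without either E11.5 array (0.111 and 0.4466) or E12 replicate 1 (0.6724).

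Most large vestibular changes had a counterpart in the cochlea, dissected from the ventral region at the same stages. There 350 genes rose and 251 fell (3.74% and 2.68%, 6.43% in all). Of the 171 vestibular rises 114 rose in the cochlea too (66.7% of the vestibular and 32.6% of the cochlear list) and none fell there; of the 143 falls 80 fell there (55.9% and 31.9%) and 1 rose. With E12 alone in both tissues, 356 cochlear genes rose and 237 fell (3.81% and 2.53%, 6.34% in all), shared by 138 of 224 vestibular rises and 78 of 148 falls. Both tissues share stage and dispase time, but no array.

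The change differed between the tissues in 80 genes (0.855%), 16 with a more positive change in the vestibular organ and 64 with a more negative one (0.171% and 0.684%), tested as the vestibular change minus the cochlear change. With E12 alone in both tissues it was 22 and 46. The count rests heavily on single arrays of E10.5: it was 175 without cochlear replicate 1 and 28 without vestibular replicate 2. Pcdh20 differed by 2.499 (SE 0.34, limma adjusted p = 6.2e-06), having 28 to 38.9 in the cochlea at E11.5 and E12 and 15.2 and 18 there at E10.5. Vit, which encodes the matrix protein vitrin, was at the floor of 10 on all 6 cochlear arrays, and read 100 and 99.9 at E11.5 and 114 and 154 at E12 in the vestibular organ, against 10 and 18.4 at E10.5. Its cochlear change was therefore not measured, and the fitted difference of 2.13 (adjusted p = 6.82e-08) is the vestibular change set against a value fixed by the floor.

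Of the other 14 positive differences, 5 are described. Timp3, a metalloproteinase inhibitor gene, rose to 326 and 323 at E11.5 and 600 and 593 at E12 in the vestibular organ, against 133 and 123 at E10.5, while the cochlea had 58.4 and 67.7 and then 58.9 and 42.6, against 89.3 and 99.6 (difference 2.27, SE 0.24, limma adjusted p = 2.43e-08; 0.86 to 2.39 in 3 other probe sets). Bmp6 rose in the vestibular organ and had a change of -0.19 in the cochlea (difference 1.58, SE 0.19, adjusted p = 4.81e-07). Aldh1a3 rose in both, by 2.68 and 1.08 (difference 1.61, SE 0.32, adjusted p = 0.00314; 0.05863 without cochlear E10.5 replicate 2). For Neurod1 the difference of 1.40 (adjusted p = 0.00285) came with values of -0.86 in the vestibular organ and -2.26 in the cochlea. Fez1, a neuronal adaptor gene, differed by 1.57, but this was not called with E12 alone (adjusted p = 0.09178), nor without any of 5 single arrays (0.0526 to 0.3515): the second E10.5 array of either tissue, vestibular E11.5 replicate 2, cochlear E11.5 replicate 1 and cochlear E12 replicate 2.

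**Figure D5:**
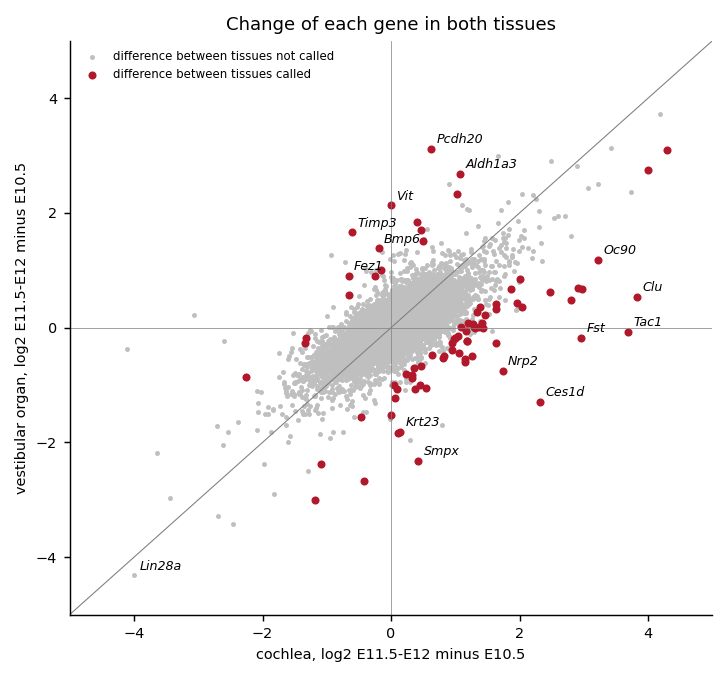
Log2 change from E10.5 to E11.5 and E12 of each gene in the vestibular organ (vertical) against the cochlea (horizontal); red points are the 80 genes whose change differed between the tissues, and the diagonal marks equal change. Tac1, Clu and Fst lie far right, Clu at a vestibular change of 0.54 in the probe set drawn.

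Most of the largest negative differences came with rises in the cochlea, while that of Smpx came with a vestibular fall. Tac1, the gene of substance P, read 11.9 to 18.9 at E11.5 and E12 in the vestibular organ, against a mean of 17.85 at E10.5, and 282 and 218 at E11.5 and 701 and 849 at E12 in the cochlea, against 20.1 and 18.6 there (difference -3.76, SE 0.28, limma adjusted p = 2.83e-12). Clu, the clusterin gene, and Fst, the follistatin gene, had vestibular changes of 0.54 and -0.17, not called, and differences of -3.28 and -3.13. The 3 other probe sets of Clu had vestibular changes of 0.68, 0.90 and 1.16, the last of them past the threshold (adjusted p = 0.02801), and differences of -2.93 to -3.13. Ces1d fell in the vestibular organ by 1.29 (SE 0.24) and rose in the cochlea by 2.32 (difference -3.61, SE 0.34, adjusted p = 1.91e-09). A second probe set of Ces1d gave nearly the same difference, but the third had a vestibular change of 0.04 and a difference of -0.50. Smpx (-2.74), Krt23 (-1.96) and Nrp2, a semaphorin receptor gene (-2.49), differed too. The vestibular and the cochlear change were -2.32 and 0.42 for Smpx, -1.82 and 0.14 for Krt23 and -0.75 and 1.73 for Nrp2. The difference of Nrp2 was -1.62 without cochlear E10.5 replicate 2. Cochlear Smpx was near the floor of 10, averaging 15.25 at E10.5, 21.6 at E11.5 and 31.55 at E12. A fall of Smpx like the vestibular one could therefore not be measured in the cochlea. Oc90 rose in both, by 1.18 and 3.23 (difference -2.04, SE 0.28, adjusted p = 1.1e-05), its cochlear E10.5 arrays being at 642 and 306. Gata3 had -0.38 and 0.94 (difference -1.33, adjusted p = 0.0434).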

How the data were processed

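The authors' deposited table holds 1 intensity per probe set and array. The tool was MAS5, per the submitters' processing notes, and its version and scaling were not stated. Values are linear with a floor of 10. Of 22626 probe sets, 20380 have 1 gene symbol. The 64 arrays were quantile normalized, log2(signal + 16) was taken, probe sets at or above the array median on at least 2 arrays were kept, and each of 9352 genes was represented by its brightest probe set. limma 3.58.1 in R 4.3.3 fitted 32 group means to all 64 arrays (32 residual degrees of freedom, variance trend), and contrasts gave the comparisons, with two-sided p-values after Benjamini-Hochberg adjustment. With 2 arrays per stage precision is limited. Each pool of a stage came from its own litters, so p-values reflect variation among pools. Signals carry no read depth.

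The utricle trend is a least-squares slope over 6 stages times the 2.5 days spanned. Floor bounds compare the later mean with the floor. A median over a list covers its tested members. The members and the 36 gene lists were chosen with earlier results of these data known. The genes named are the 12 largest called changes each way without overlap, up to 5 called members of each list, the 6 and 5 largest each way in the other comparisons, and a panel of inner ear genes; 5 panel genes have no probe set with 1 symbol and Hspa1a was below the filter. Other list members named with values were chosen after their values were seen. The script was tested on simulated data. Alternatives are listed in the closing section.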

Additional observations from a re-analysis of the deposited data

Results flagged for a closer look

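In 3 named genes 1 of the 4 later arrays stood far from the other 3, by a test that chance meets in about 1 group in 20. Far more than 20 genes are named, so a few such gaps are to be met by chance. For Tubb6 the gap was 0.839 of the range, E11.5 replicate 1 reading 35 and the others 56.3 to 61.3. For Cbr3 it was 1, E11.5 replicate 2 reading 50.8 and the others 10, a value fixed by the floor. For Wnt5a it was 0.839, E11.5 replicate 2 reading 99 and the others 128.7 to 135.2.

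Of the 80 genes whose change in the vestibular organ differed from that in the cochlea by the test of the difference, 12 were named by their size, 6 in each direction. The vestibular change minus the cochlear change was 2.499 for Pcdh20, 2.27 for Timp3, 2.13 for Vit, 1.61 for Aldh1a3, 1.58 for Bmp6 and 1.57 for Fez1. It was -3.76 for Tac1, -3.61 for Ces1d, -3.28 for Clu, -3.13 for Fst, -2.74 for Smpx and -2.49 for Nrp2. Vit was at the floor on every cochlear array, so its difference has no measured cochlear side. Smpx was near the floor in the cochlea at E10.5, with an average of 15.25, so a fall there could not be measured. Fez1 was not called with E12 alone or without any of 5 single arrays. A further probe set of Ces1d gave -0.50.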

How the results depend on the processing

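With a pseudocount of 64 the counts were 158 (84 higher, 74 lower) for E11.5 and E12 against E10.5, 47 (36 lower) for the difference from the cochlea, 39 (31 higher) for E12 against E11.5 and 425 (301 and 124) for the utricle trend. With every probe set tested alone, the difference gave 122 (27 higher), E12 against E11.5 had 27 lower, and the trend gave 1063 (399 lower). Array weights gave 19 lower for E12 against E11.5. With the E11 arrays joined to the later side in both tissues the difference gave 40 (7 and 33). With E11 in place of E10.5, an alternative added after seeing the data, 82 genes were lower. With only the arrays of E10.5 to E12, also added afterwards, 31 were higher in the difference. Without normalization the first comparison had 223 higher and 127 lower, 63.7% higher against 54.5%. Of the named genes, 18 lost their call with a pseudocount of 64, among them Tecta, Wnt4, Wnt5a, Gsc, Meis1, Aqp5, Slc26a4 and Mogat2. With the E11 arrays joined to the later side 13 lost it. With E11.5 alone against E10.5, 14 lost it, among them Otog, Tecta, Fgf9, Bmp6, Fstl1, Crabp1, Slc26a4 and Cldn8. Of the 171 rising and 143 falling genes, 113 and 101 were called with E11.5 alone.

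Leaving out each array in turn gave 291 to 317 genes for the first comparison (167 to 174 higher, 121 to 146 lower), 28 to 175 for the difference (8 to 35 and 20 to 140), 36 to 58 for E12 against E11.5 (32 to 51 and 4 to 13) and 556 to 989 for the utricle trend (389 to 635 and 167 to 354). The lone array left in a group then takes the spread of the others.

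With the replicate number as a block the counts were 316, 77, 64 and 705. Deviations of equally numbered vestibular and cochlear arrays correlated at 0.0315, 0.187 and 0.139, so the numbers were not taken to pair samples; with stage and number as a random block 31 genes were higher in the difference.

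Among genes not called, signs turned for some. Leaving out each array in turn, Hmx3 ranged from -0.15 to 0.014, Jag1 from -0.36 to 0.10, Mycn from -0.20 to 0.033, Fgf10 from -0.23 to 0.36, Ccnd1 from -0.0037 to 0.062 and Myo7a from -0.23 to 0.049. With E11 joined, Fgf10 had -0.32, Myo7a 0.20 and Ccnd1 -0.042. With E11.5 alone, Sox10 had 0.097, Fgf10 -0.12, Gfi1 0, Myo7a 0.30 and Mycn 0.0065. With E12 alone, Eya1 had 0.039, Bmp4 -0.058, Ccnd1 -0.13 and Hmga2 -0.21. The causes were not tested.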
